A study of Mus musculus with 16 samples.

Results

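The satellite cell, the stem cell of adult skeletal muscle, is marked by genes of which 10 were followed here in satellite cell-derived myoblasts of the mouse. They were Pax7, Sox8, Calcr, Spry1, Chrdl2, Cd34, Cdh15, Vcam1, Jam2 and Ncam1. They were taken by name: every probe whose gene name on the array was 1 of these 10 was used, which gave 16 probes of 55681 and 10 gene names of 34650. The myoblasts came from male C57Bl/6J mice aged 11 to 13 weeks, with no transgene or drug in any group. They were grown either dispersed, on gelatin-coated dishes and so without the niche, or myofiber-associated, on isolated myofibers in suspension, and were collected 48 or 72 hr after isolation. Each of the 4 groups held 4 one-color Agilent arrays, and each array was 1 independent preparation, from 1 mouse in dispersed cultures and 2 mice in myofiber cultures, except that 1 myofiber-associated 48-hr array was a pool of 2 preparations. That pool was taken to be replicate 4, whose title joins 2 numbers. Myoblasts were shaken and trypsinized off the myofibers and the stripped myofibers were discarded. All 8 dispersed arrays lay on 1 slide and all 8 myofiber-associated arrays on another, so slide and culture cannot be told apart in any comparison between the cultures. On both slides the 72-hr arrays lay in columns 1 and 2 and the 48-hr arrays in columns 3 and 4, so column and time cannot be told apart either.

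Satellite cells lie under the basal lamina of a muscle fiber, pressed against its membrane, and are quiescent in uninjured muscle. Once activated they divide as myoblasts, and most of these leave the cell cycle and differentiate while some return to quiescence and renew the stem cell pool. Pax7 is the transcription factor that defines the lineage. The other genes describe how the cell is held in its niche or in quiescence: M-cadherin, NCAM, VCAM-1 and JAM-B, the products of Cdh15, Ncam1, Vcam1 and Jam2, are adhesion molecules, CD34 is a sialomucin, the calcitonin receptor and Sprouty1 restrain activation, and Chordin-like 2 binds bone morphogenetic proteins (BMPs). Several are not particular to satellite cells: Cd34 and Vcam1 are also genes of vascular endothelium, and Ncam1 of regenerating fibers and of Schwann cells.

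Signals are given as log2 of the background-subtracted spot signal after normalization, so a difference of 1 is a 2-fold difference. Levels were compared only within a probe, because probes differ in how strongly they bind. Cd34, Vcam1, Jam2 and Ncam1 had more than 1 probe, and each probe is named here by the position of its first base in the transcript record it was designed on. The probe of the brightest signal stood for the gene: position 2370 for Cd34, 3060 for Vcam1, 1108 for Jam2 and 6856 for Ncam1. The sequences of 4 of the probes whose readings decide how these genes are described are shown in lower case, 5′ to 3′ in the direction of the transcript. They lay in build mm9 at chr1:196785280-196785339 (Cd34, plus strand), chr3:115828953-115829012 (Vcam1, minus strand), chr16:84816558-84816617 (Jam2, plus strand) and chr9:49351182-49351241 (Ncam1, minus strand).
Cd34 probe at 963: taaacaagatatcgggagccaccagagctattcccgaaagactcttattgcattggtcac
Vcam1 probe at 842: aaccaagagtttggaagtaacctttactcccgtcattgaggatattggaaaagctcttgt
Jam2 probe at 1108: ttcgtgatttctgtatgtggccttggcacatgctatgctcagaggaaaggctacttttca
Ncam1 probe at 2012: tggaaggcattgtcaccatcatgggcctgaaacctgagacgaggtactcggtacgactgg

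Promoter sequence from RefSeq, on build GRCm38.p6, was at hand for 6 of the 10 genes, and the 250 bases before the transcription start are shown for 4 genes that changed on myofibers, 3 that rose and 1 that fell. They are Pax7 (chr4:139832969-139833218, minus strand), Sox8 (chr17:25570687-25570936, minus strand), Cdh15 (chr8:122848124-122848373, plus strand) and Cd34 (chr1:194938571-194938820, plus strand). Capitals mark matches on either strand to CANNTG, where N is any base, the E-box read by MyoD and other basic helix-loop-helix factors, or to TGGGAA, the core read by the Notch effector RBPJ.
Pax7: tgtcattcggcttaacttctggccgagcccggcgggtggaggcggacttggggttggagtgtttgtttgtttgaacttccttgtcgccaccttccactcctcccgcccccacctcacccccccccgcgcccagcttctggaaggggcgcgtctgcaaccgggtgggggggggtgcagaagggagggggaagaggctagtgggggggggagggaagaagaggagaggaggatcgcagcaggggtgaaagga
Sox8: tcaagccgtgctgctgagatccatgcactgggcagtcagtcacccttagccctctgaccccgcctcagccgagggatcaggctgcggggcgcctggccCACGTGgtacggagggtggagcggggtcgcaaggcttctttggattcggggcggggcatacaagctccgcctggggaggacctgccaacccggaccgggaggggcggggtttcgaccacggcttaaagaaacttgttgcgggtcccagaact
Cdh15: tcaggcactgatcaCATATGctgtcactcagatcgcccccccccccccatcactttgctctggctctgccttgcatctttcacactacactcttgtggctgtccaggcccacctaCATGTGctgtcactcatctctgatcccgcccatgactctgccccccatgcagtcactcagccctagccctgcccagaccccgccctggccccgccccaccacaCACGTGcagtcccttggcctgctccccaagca
Cd34: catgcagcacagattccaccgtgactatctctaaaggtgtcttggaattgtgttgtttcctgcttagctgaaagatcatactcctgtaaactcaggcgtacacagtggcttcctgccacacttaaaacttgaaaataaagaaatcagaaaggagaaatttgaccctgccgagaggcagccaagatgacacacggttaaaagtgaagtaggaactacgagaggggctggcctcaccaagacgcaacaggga
The window of Cdh15 held 3 E-boxes, with the first base 236, 135 and 32 bases before the start, and that of Sox8 held 1, at 152 bases. The windows of Pax7 and Cd34 held none. CANNTG was present in 66.2% of all 32851 promoter windows of this length and in 4 of the 6 genes, the other two being Calcr and Spry1. CAGCTG, a form of the E-box counted within CANNTG, was present in 13.0% of all windows and in 0 of the 6, and TGGGAA in 21.6% and in 0 of the 6. These matches describe letters in a window and say nothing about binding.

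Between 54.0% and 63.5% of all probes were well above background on each array, none of the spots was saturated, and the median SD of a gene among 4 arrays was 0.09 and 0.10 in dispersed cultures at 48 and 72 hr and 0.22 and 0.18 on myofibers. Changes on myofibers therefore had to be larger to be called. Myod1, the myoblast marker, read between 14.3 and 15.5 on all 16 arrays. A gene was called at an adjusted p under 0.01, from limma with Benjamini-Hochberg adjustment over 20237 genes whose median signal was at least 5. Of the 10 genes, 9 passed that filter and Calcr did not. A signal in such preparations is an amount per total RNA, so fewer cells of a type and less RNA per cell cannot be told apart.

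In dispersed myoblasts, 2 of the 9 genes tested, Jam2 and Ncam1, rose from 48 to 72 hr and 1, Chrdl2, fell, against 7.38% of all genes that rose and 6.35% that fell. In myofiber-associated myoblasts 4 of the 9 rose, namely Pax7, Sox8, Jam2 and Cdh15, and 1, Cd34, fell, against 3.74% and 1.77% of all genes. The median change of all genes was 0.02 and 0.06. The 48- and 72-hr arrays did not overlap for 4 of the 9 genes in dispersed cultures and 7 of the 9 on myofibers, against 31.2% and 26.3% of all genes. Groups of 4 arrays that do not overlap always give p = 0.0286 in an exact two-sided permutation test, the smallest that this design allows. That test therefore adds nothing to these counts.

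**Figure D1:**
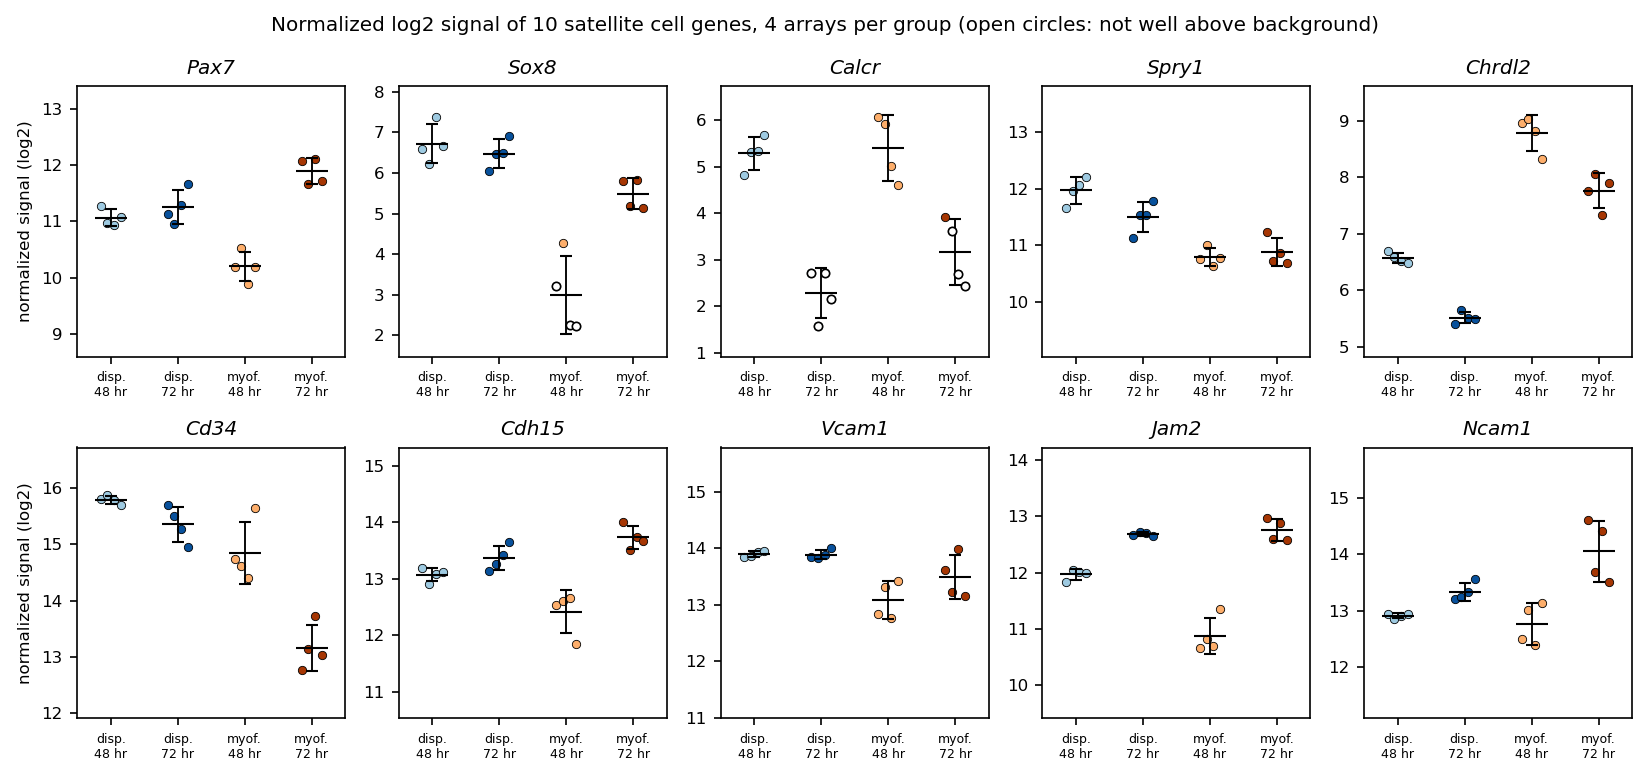
Normalized log2 signal of the 10 genes on each of the 16 arrays, by culture and time, with the group mean and SD (n = 4 arrays) as bars and open circles where the probe was not well above background; each panel has its own axis. On myofibers Pax7 lay lowest of the 4 groups at 48 hr and highest at 72 hr, and Cd34 at 72 hr lay below every other group.

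Of the 2 transcription factors, both changed on myofibers and neither was called in dispersed cultures. Pax7 read 10.19, 10.53, 9.90 and 10.20 on the myofiber-associated 48-hr arrays and 12.07, 11.67, 12.10 and 11.71 at 72 hr. Every 72-hr array lay above every 48-hr array, and the rise of 1.68 (SE 0.16) was 3.21-fold (limma, adjusted p = 0.0011). In dispersed myoblasts Pax7 read 11.28, 10.98, 10.94 and 11.08 at 48 hr and 11.13, 10.95, 11.29 and 11.67 at 72 hr. These overlapped, with a difference of 0.19 (SE 0.15, adjusted p = 0.403) and a 95% interval from -0.16 to 0.54.

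Sox8, a SoxE transcription factor found in satellite cells, was near the limit of detection on myofibers at 48 hr. Its probe read 3.22, 4.27, 2.25 and 2.24 there, and 1 of these 4 arrays, the second, was well above background. At 72 hr it read 5.81, 5.19, 5.82 and 5.14, well above background on all 4. The rise was 2.49 (SE 0.45, adjusted p = 0.00886). It rested on dim readings: another background correction, normexp, gave 0.61 (adjusted p = 0.0136), and the authors' table gave 1.40. Leaving out any single array other than 48-hr replicate 2 also ended the call, with adjusted p between 0.0113 and 0.0327 and a rise between 2.24 and 2.61. In dispersed cultures Sox8 read 6.59, 6.22, 7.37 and 6.68 at 48 hr and 6.04, 6.46, 6.50 and 6.90 at 72 hr, with no call (-0.24, SE 0.26, adjusted p = 0.545).

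Among the receptor and the regulators of signaling, Chrdl2 was the gene called. Chrdl2, a secreted antagonist of BMPs, read 6.70, 6.59, 6.51 and 6.49 in dispersed myoblasts at 48 hr and 5.40, 5.64, 5.52 and 5.48 at 72 hr. The groups were far apart for their spread, and the fall of 1.06 on the log2 scale (SE 0.07) was 2.08-fold (adjusted p = 5.65e-05). On myofibers it read 8.97, 9.04, 8.82 and 8.33 at 48 hr and 7.75, 8.06, 7.33 and 7.91 at 72 hr. All 72-hr arrays were lower, by a like amount (-1.02, SE 0.20), but the adjusted p was 0.0126 and the gene was not called. It was called without the pooled array, replicate 4 at 48 hr (-1.18, adjusted p = 0.00447).

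Calcr encodes the calcitonin receptor, a receptor of quiescent satellite cells. It was dim and fell under the filter on low signal, so the main fit gave it no call. In the limma fit without a filter, over 34650 genes, the adjusted p of its fall was 0.00118 in dispersed cultures and 0.0285 on myofibers. For the difference between the cultures it was 0.463. These rest on 72-hr readings of which most were not well above background. In dispersed myoblasts it read 4.82, 5.32, 5.35 and 5.68 at 48 hr, well above background on all 4 arrays, and 2.71, 1.59, 2.71 and 2.17 at 72 hr, on none. With the scanner's background subtraction it was thus at least 2.49-fold lower at 72 hr. That bound takes the lowest signal well above background as the level at 72 hr. On myofibers it read 6.06, 5.93, 5.02 and 4.61 at 48 hr and 3.92, 3.62, 2.70 and 2.43 at 72 hr, where only the first array was well above background. The 2 times did not overlap in either culture. The measured means differed by -3.00 in dispersed and -2.24 in myofiber-associated myoblasts, but by -0.63 and -0.58 with normexp. The normexp difference in dispersed cultures was smaller than the bound. The bound thus holds only for the background subtraction used, and no size is settled.

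Spry1, whose product Sprouty1 restrains receptor tyrosine kinase signaling, was not called in either culture. In dispersed myoblasts it read 11.66, 11.95, 12.06 and 12.21 at 48 hr and 11.13, 11.53, 11.54 and 11.79 at 72 hr, a difference of -0.47 (SE 0.16, adjusted p = 0.0609). On myofibers it read 10.75, 11.01, 10.63 and 10.77 at 48 hr and 11.23, 10.72, 10.86 and 10.69 at 72 hr, a difference of 0.08 with a 95% interval from -0.25 to 0.41. The arrays of the 2 times overlapped in both cultures.

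**Figure D2:**
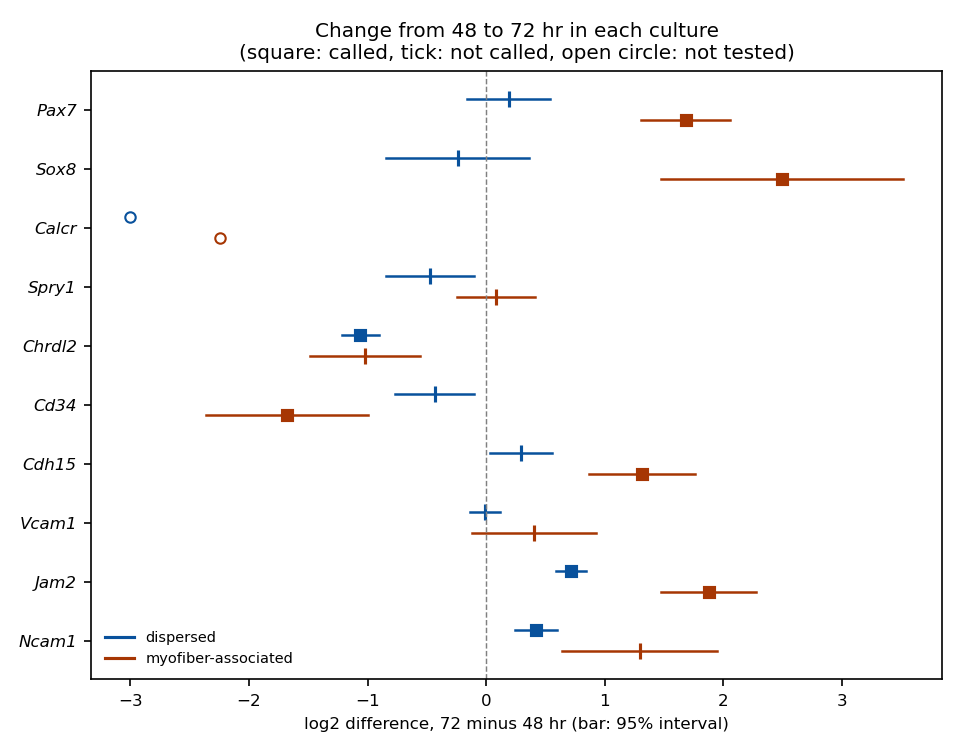
Log2 difference, 72 minus 48 hr, of each gene in dispersed and myofiber-associated myoblasts, with the 95% interval of the limma fit; squares mark genes called at an adjusted p under 0.01, ticks those not called and open circles the gene not tested. On myofibers Pax7, Sox8, Cdh15 and Jam2 lie between 1.32 and 2.49 and Cd34 at -1.68.

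Of the 5 genes of the cell surface, 2 rose on myofibers, Cdh15 and Jam2, and 1 fell, Cd34. Cdh15, the gene of M-cadherin, read 12.54, 12.60, 12.67 and 11.85 on myofibers at 48 hr and 14.00, 13.51, 13.74 and 13.67 at 72 hr. All 72-hr arrays were higher, by 1.32 (SE 0.20, 2.49-fold, adjusted p = 0.00481). The lowest array was the pooled one, and without it the rise was 1.13 (adjusted p = 0.00199). Without 48-hr replicates 1 or 2, or 72-hr replicates 1, 2 or 3, it was no longer called (1.23 to 1.39, adjusted p from 0.0103 to 0.018). In dispersed myoblasts Cdh15 read 13.20, 12.91, 13.08 and 13.12 at 48 hr and 13.14, 13.26, 13.41 and 13.65 at 72 hr (0.29, SE 0.11, adjusted p = 0.0933).

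Jam2, the gene of junctional adhesion molecule B, was the gene of this set called in both cultures. It read 11.83, 12.05, 12.01 and 12.00 in dispersed myoblasts at 48 hr and 12.67, 12.72, 12.70 and 12.65 at 72 hr. On myofibers it read 10.66, 10.82, 10.69 and 11.35 at 48 hr and 12.97, 12.60, 12.88 and 12.58 at 72 hr. The 72-hr arrays were all higher in each culture, by 0.72 (SE 0.06, adjusted p = 0.000113) in dispersed and 1.88 (SE 0.17, adjusted p = 0.000991) in myofiber-associated myoblasts. The probes at 3148 and at 1923, the latter designed on another transcript record, were called higher in both cultures as well, by 0.91 and 0.75 in dispersed and by 1.82 and 1.48 in myofiber-associated myoblasts.

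Ncam1, the gene of the neural cell adhesion molecule, read 12.94, 12.85, 12.92 and 12.95 in dispersed myoblasts at 48 hr and 13.21, 13.24, 13.33 and 13.56 at 72 hr. The rise of 0.42 (SE 0.08, adjusted p = 0.00625) was small, and the call was lost without any 48-hr array or without 72-hr replicates 2 or 3 (0.40 to 0.45, adjusted p from 0.012 to 0.0219). On myofibers it read 12.50, 13.02, 12.39 and 13.14 at 48 hr and 14.60, 13.68, 14.41 and 13.52 at 72 hr. No array overlapped, yet the difference of 1.29 (SE 0.28) was not called (adjusted p = 0.0182). The 4 arrays of each time fell into a higher and a lower pair. The probe at 2012, shown above, was called in both cultures, at 0.37 (adjusted p = 0.00354) and 1.04 (adjusted p = 0.00413), and that at 4688 in dispersed cultures (0.78, adjusted p = 0.000369) but not on myofibers (1.11, adjusted p = 0.0119). With the mean of the 3 probes Ncam1 was called on myofibers (1.15, adjusted p = 0.00136).

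Cd34 was the gene that fell on myofibers. It read 14.73, 14.62, 14.40 and 15.64 at 48 hr, the highest being the pooled array, and 12.76, 13.14, 13.73 and 13.04 at 72 hr. Every 72-hr array was lower, and the fall of 1.68 on the log2 scale (SE 0.30) was 3.21-fold (adjusted p = 0.00863). Without the pooled array it was still called (-1.41, adjusted p = 0.00537), and without any other single array it was not (-1.87 to -1.55, adjusted p from 0.0113 to 0.0304). In dispersed myoblasts Cd34 read 15.80, 15.87, 15.79 and 15.70 at 48 hr and 15.69, 15.50, 15.27 and 14.96 at 72 hr, all lower but not called (-0.43, SE 0.14, adjusted p = 0.0579). The probe at 963 gave -1.65 on myofibers (adjusted p = 0.00855). In dispersed cultures it gave -0.33, and there its 48- and 72-hr arrays overlapped (adjusted p = 0.286).

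Vcam1, a receptor for integrins on satellite cells and activated endothelium, was not called in either culture by its brightest probe. That probe read 13.85, 13.86, 13.93 and 13.96 in dispersed myoblasts at 48 hr and 13.84, 13.82, 13.88 and 14.01 at 72 hr, a difference of -0.01 with a 95% interval from -0.13 to 0.11. Its other probe, at 842, read 10.08, 10.22, 10.05 and 10.10 and then 9.78, 9.69, 9.77 and 9.62, and was called lower (-0.40, SE 0.06, adjusted p = 0.00212). With the mean of both probes, Vcam1 was called lower too (-0.20, adjusted p = 0.00595). The 2 probes of Vcam1 thus gave different calls on the same arrays. On myofibers the brightest probe read 12.84, 13.32, 12.77 and 13.43 at 48 hr and 13.62, 13.23, 13.98 and 13.15 at 72 hr, which overlapped (0.40, SE 0.23, adjusted p = 0.21). The probe at 842 overlapped there too (0.11, adjusted p = 0.783).

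**Figure D3:**
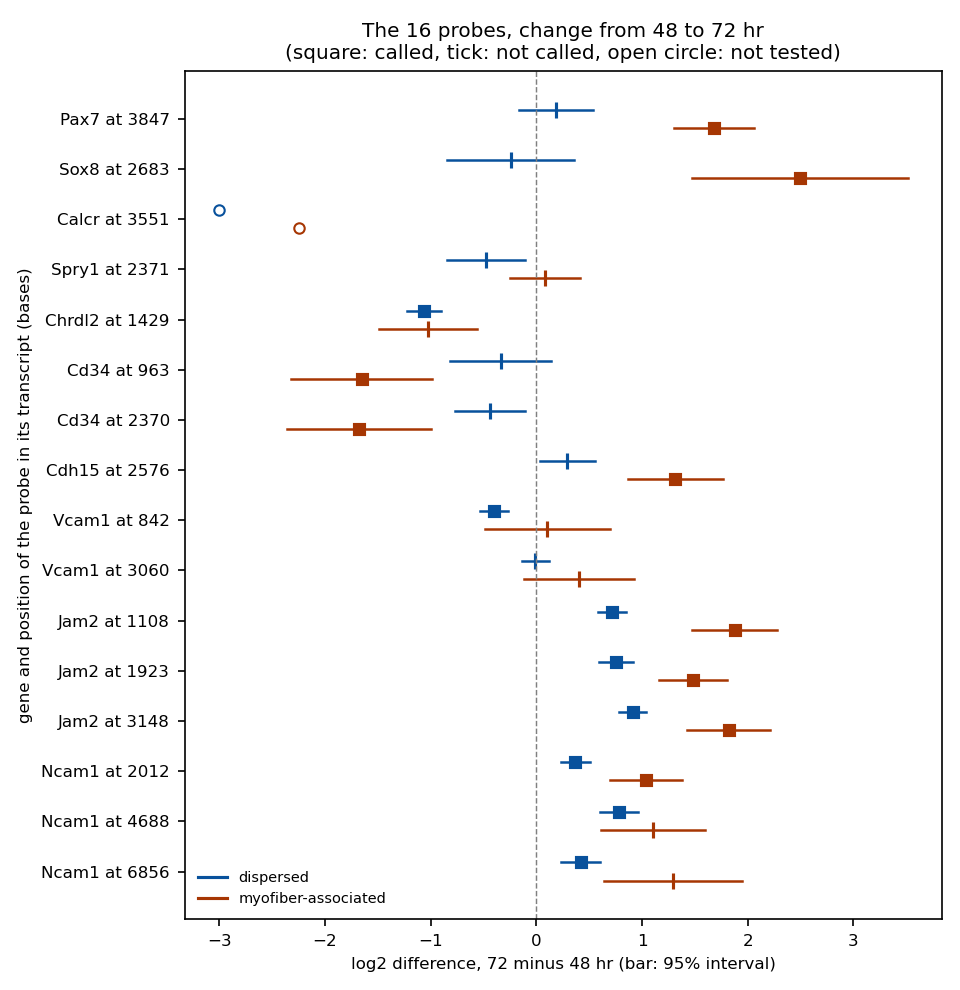
Log2 difference, 72 minus 48 hr, for each of the 16 probes, named by gene and position in the transcript record in bases, with the 95% interval; squares mark calls, ticks no call and open circles the probe not tested. The 3 probes of Jam2 lie above 0 in both cultures, while in dispersed myoblasts the Vcam1 probe at 842 lies at -0.40 and that at 3060 at -0.01.

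Over single probes, 6 of 15 tested rose and 2 fell in dispersed cultures, against 12.4% of all 28197 probes called in either direction. On myofibers 7 rose and 2 fell, against 5.42%. Probes of 1 gene share its transcript and are not independent readings of the set.

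Whether a gene changed differently in the 2 cultures was tested as the dispersed change minus the myofiber-associated change. Of the 9 genes, 3 were called and all 3 were lower, against 2.37% of all genes called lower and 1.10% called higher. Pax7 gave -1.49 (SE 0.23, adjusted p = 0.0019), Jam2 -1.16 (SE 0.19, adjusted p = 0.00254) and Sox8 -2.73 (SE 0.55, adjusted p = 0.00764). The size for Sox8 rests on the dim 48-hr readings on myofibers: it was -0.73 and not called with normexp (adjusted p = 0.0396), -1.63 from the authors' table, and not called without a filter (adjusted p = 0.0162). Pax7 and Jam2 were called without any single one of the 16 arrays. Sox8 was also not called without any 1 of 12 arrays (adjusted p up to 0.0194), the others being dispersed 72-hr replicate 4, myofiber-associated 48-hr replicates 2 and 4 and myofiber-associated 72-hr replicate 4.

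Cdh15 gave -1.02 (adjusted p = 0.0142), Cd34 1.25 (adjusted p = 0.0317), Ncam1 -0.87 (adjusted p = 0.0701) and Spry1 -0.56 (adjusted p = 0.0954), none of them called. The difference for Chrdl2 was -0.04, with a 95% interval from -0.51 to 0.44, so a difference of the size seen for Pax7 lay outside its interval. For Vcam1 it was -0.41, from -0.94 to 0.11. By probe, 4 of 15 were called and all were lower, against 3.12% of all probes. For Jam2 those at 1108 and 3148 (-0.91, adjusted p = 0.0082) were called and that at 1923 was not (-0.73, adjusted p = 0.011).

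Between the cultures more of the genes were called at 48 hr than at 72 hr, as was so for all genes (8739 and 5497). At 48 hr 5 of the 9 were lower on myofibers and 1 was higher, against 27.1% and 16.1% of all genes, and the median difference of all genes was itself -0.12. Those lower were Spry1 (-1.18, SE 0.13, adjusted p = 0.000179), Jam2 (-1.09, SE 0.15, adjusted p = 0.000521), Pax7 (-0.86, SE 0.14, adjusted p = 0.00107) and Vcam1 (-0.81, SE 0.16, adjusted p = 0.00242), and Sox8. Sox8 was well above background on only 1 of the 4 myofiber-associated arrays, and its difference was -3.72 (adjusted p = 0.000285) but -1.13 with normexp, both called, so its size is not settled. Chrdl2 was higher on myofibers by 2.22 (SE 0.15, adjusted p = 1.44e-05). Cd34 (-0.94) and Cdh15 (-0.66) were lower on every myofiber-associated array without being called (adjusted p = 0.01004, just over the threshold, and 0.0127). Without the pooled array both were called (-1.21, adjusted p = 2.66e-05, and -0.47, adjusted p = 0.00169). A fit with the row of the slide as a block gave each slide its own row term. Its difference between the cultures therefore compared only row 1, replicates 1 and 2 of each group. In that fit Pax7, Vcam1 and Jam2 kept their direction and were not called (adjusted p = 0.0245, 0.0549 and 0.0114). With fewer arrays compared, these lost calls do not measure an effect of row.

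At 72 hr 2 of the 9 were lower on myofibers and 1 was higher, against 15.6% and 11.6% of all genes. Cd34 was lower (-2.19, SE 0.23, adjusted p = 0.000239) and Chrdl2 higher by 2.25 (SE 0.15, adjusted p = 3.05e-05). Sox8 was lower (-0.99, adjusted p = 0.0092), a call that most alternatives ended. It was -0.75 with the slide row as a block, which here too compared only replicates 1 and 2 of each group (adjusted p = 0.154). With normexp it was -0.40 (adjusted p = 0.0387) and with the 75th percentile -0.71 (adjusted p = 0.0452). The adjusted p was 0.0512 with 1 fit of all arrays, 0.0202 without a filter, 0.0107 with the filter on detection and 0.0114 without loess. The call was lost too without any 1 of 6 of the 8 arrays (dispersed replicates 2, 3 and 4 and myofiber-associated replicates 1, 2 and 4, adjusted p from 0.0111 to 0.0265). Pax7, lower on myofibers at 48 hr, was higher on every myofiber-associated array at 72 hr, by 0.63 (adjusted p = 0.0184), without a call. Jam2 differed by 0.07 by its brightest probe, with a 95% interval from -0.16 to 0.30, and by 0.11 by that at 3148. By the probe at 1923 every myofiber-associated array was lower than every dispersed one (-0.51).

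**Figure D4:**
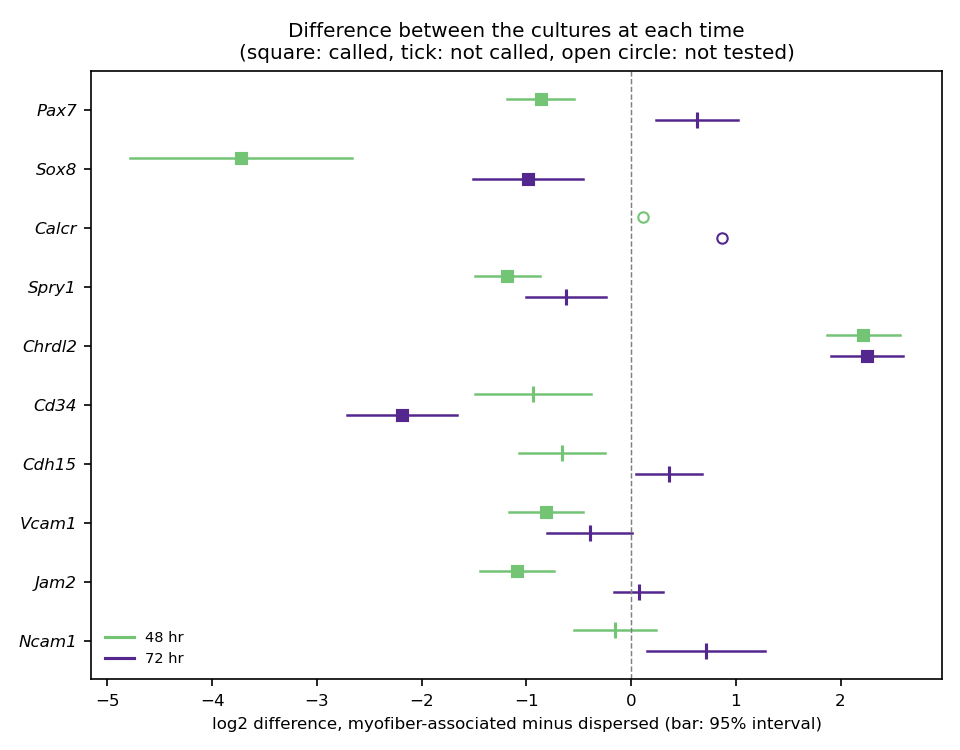
Log2 difference between the cultures, myofiber-associated minus dispersed, at 48 hr and 72 hr, with the 95% interval; squares mark calls, ticks no call and open circles the gene not tested. Chrdl2 lies above 2 at both times, and Pax7 lies at -0.86 at 48 hr and 0.63 at 72 hr.

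Ncam1 also depended on the probe between the cultures. By the brightest, at 6856, the cultures overlapped at 48 hr (-0.15, adjusted p = 0.456). By those at 2012 and 4688, every myofiber-associated array lay above every dispersed one at both times, by 0.75 and 1.73 at 48 hr and by 1.42 and 2.06 at 72 hr. The probe at 6856 was designed on another transcript record of the gene than those at 2012 and 4688.

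Other genes of satellite cells were counted from a list of 31, of which 28 passed the filter. In dispersed cultures 7 rose and 3 fell (median change 0.09), against 7.38% and 6.35% of all genes. Peg3, a zinc finger protein of several stem cells, rose by 1.08 (adjusted p = 0.000206), Megf10, a receptor of satellite cells, by 0.98 (adjusted p = 0.00136) and Des, the gene of desmin, by 0.72 (adjusted p = 0.00155). Hey1, a Notch target, fell by 1.82 (adjusted p = 0.000377), and Met, the receptor of hepatocyte growth factor, and Dag1, the gene of dystroglycan, fell by 0.50 and 0.41.

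On myofibers 6 of the 28 rose and 1 fell (median change 0.29), against 3.74% and 1.77% of all genes. Peg3 rose by 3.31 (9.91-fold, adjusted p = 0.000856), Megf10 by 2.66 (6.32-fold, adjusted p = 0.00142) and Fgfr4, a fibroblast growth factor receptor, by 2.22 (4.66-fold, adjusted p = 0.00142), and Heyl, a Notch target, fell by 0.95 (adjusted p = 0.00515). In the difference between the cultures 8 of the 28 were called and all were lower, against 2.37% of all genes lower and 1.10% higher. These were Peg3, Fgfr4, Notch3, Cxcr4, Megf10, Hey1, Sdc3 and Gas1. The list was chosen with earlier results of these data known. Its direction is therefore no independent support for that of Pax7, Jam2 and Sox8.

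Genes whose products act with the 10 were counted from a list of 36, of which 34 were tested. In dispersed cultures 3 rose and 7 fell, against 7.38% and 6.35% of all genes. On myofibers 3 rose and 5 fell, against 3.74% and 1.77%. The 2 enzymes that add polysialic acid to NCAM moved apart on myofibers: St8sia2 rose by 1.84 (adjusted p = 0.00308) and St8sia4 fell by 2.27 (adjusted p = 0.00416). In dispersed cultures St8sia4 fell by 1.88 (adjusted p = 0.000136), and St8sia2 was not called (0.54, adjusted p = 0.0339).

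Of the genes around BMPs, which Chordin-like 2 binds, Bmp4 fell in dispersed cultures by 1.54 (adjusted p = 0.000144), and the BMP targets Id2 and Id3 rose on myofibers by 0.93 and 0.79 (adjusted p = 0.00917 and 0.00147). Ramp2, which modifies receptors of the calcitonin family, fell in dispersed cultures by 1.41 and on myofibers by 0.80 (adjusted p = 6.54e-05 and 0.00842). Col5a3, the gene of a chain of collagen V, a ligand of the calcitonin receptor, fell on myofibers by 1.59 (adjusted p = 0.00396).

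Differentiation genes moved in both cultures. Of 17, 8 rose and 3 fell in dispersed cultures (median change 0.96), against 7.38% and 6.35% of all genes. Myog, the gene of myogenin, rose by 3.92 (15.1-fold, adjusted p = 4.75e-05), Mymx, listed on the array as Gm7325 and needed for fusion, by 3.49, and Myh3, the embryonic myosin, by 3.36. Ckm, muscle creatine kinase, and Myh8, the perinatal myosin, fell by 2.25 and 2.22. On myofibers 4 were called higher and 0 lower, against 3.74% and 1.77% of all genes. The change was below 0 for 9 of the 17 there, with a median of -0.64. Mymx rose by 5.47, Mymk by 2.30 and Chrna1 by 1.37. Myh3, not well above background at 48 hr on any array, rose by at least 60.0-fold (adjusted p = 0.00235). Myog was already at a mean of 14.3 on myofibers at 48 hr and was not called (-0.64, adjusted p = 0.311).

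The preparations also carried RNA that marks other cells, and some of these markers moved with genes described here. Of 12 endothelial markers 11 fell in dispersed and 9 on myofibers, against 6.35% and 1.77% of all genes. Their mean signal ran from 12.5 to 12.9 and 11.0 to 11.5 in dispersed cultures at 48 and 72 hr. On myofibers it ran from 9.60 to 10.8 and 7.72 to 8.64. All 12 were well above background on every array. The differences of Cd34 had the sign of this list's median in both cultures and, between the cultures, at both times. At 48 and at 72 hr 11 of the 12 were lower on myofibers, against 27.1% and 15.6% of all genes. Vcam1 was lower on myofibers at 48 hr. At 72 hr its brightest probe differed by -0.40 between the cultures, which overlapped, without a call. From 48 to 72 hr that probe changed by -0.01 in dispersed cultures and 0.40 on myofibers, neither called. The medians of the endothelial list were -1.47 and -2.25. The other probe of Vcam1 gave -0.40 in dispersed cultures, called lower, and 0.11 on myofibers, not called. The part of endothelial RNA in the readings of Cd34 and Vcam1 was not tested.

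Of 10 adult muscle fiber markers, 10 were higher on myofibers at 48 hr (median difference 5.77) and 8 at 72 hr (median 4.80). Of all genes, 16.1% and 11.6% were called higher at these times. Their mean signal ran from 14.9 to 15.9 on myofibers at 48 hr, and from 7.88 to 10.3 over the dispersed arrays. The myofiber-associated preparations thus carried abundant fiber transcripts, although their label describes preparations free of fiber RNA. On myofibers at 72 hr the 4 arrays read 11.9, 13.3, 11.9 and 14.1, and replicates 1 and 3, lowest for fiber markers, had the 2 highest readings of 7 of the 10 genes by the brightest probe: Pax7, Sox8, Spry1, Cdh15, Vcam1, Jam2 and Ncam1. They had the 2 lowest of Chrdl2, while Calcr and Cd34 did not separate these arrays. The share of all genes with their 2 highest readings on replicates 1 and 3 was not counted. The count of 7 can thus not be read as particular to these genes. The 2 highest readings of Ncam1 lay on replicates 1 and 3 by its brightest probe only. Its probe at 4688 read 10.74, 10.84, 10.54 and 10.99 on these 4 arrays, lowest on replicates 1 and 3. Its probe at 2012 read 11.02, 10.69, 10.84 and 10.91, highest on replicates 1 and 4. The other probes of Vcam1 and Jam2 had their 2 highest readings on replicates 1 and 3. Chrdl2 had the sign of this list's median in both cultures, where the list gave -1.84 and -2.27, and between them at both times. The part of fiber RNA in any of these readings was not tested.

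Among fibroblast markers (7 tested) 1 fell in dispersed cultures and 3 on myofibers, and among pericyte and smooth muscle markers (7 tested) 3 and 1. Of Schwann cell markers (7 tested of 9) 5 fell in dispersed cultures. Of leukocyte markers (10 tested of 11) 4 fell and 1 rose in dispersed cultures, and 1 rose on myofibers. Of all genes, 7.38% rose and 6.35% fell in dispersed cultures, and 3.74% rose and 1.77% fell on myofibers. Mean signals of the pericyte list ran from 10.1 to 11.3 and 8.57 to 9.90 in dispersed cultures and from 9.01 to 9.47 and 8.07 to 8.52 on myofibers. Those of the Schwann list ran from 8.42 to 8.72 and 7.69 to 8.15, and from 6.67 to 7.21 and 6.53 to 7.10. The median change of the fibroblast list was -0.39 in dispersed cultures and -1.44 on myofibers, the sign of Cd34 in both. Between the cultures its median difference was 0.21 at 48 hr, against the sign of Cd34, and -0.81 at 72 hr, with it. The part of these cell types in Cd34, Ncam1, Sox8 and Spry1 was not tested.

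**Figure D5:**
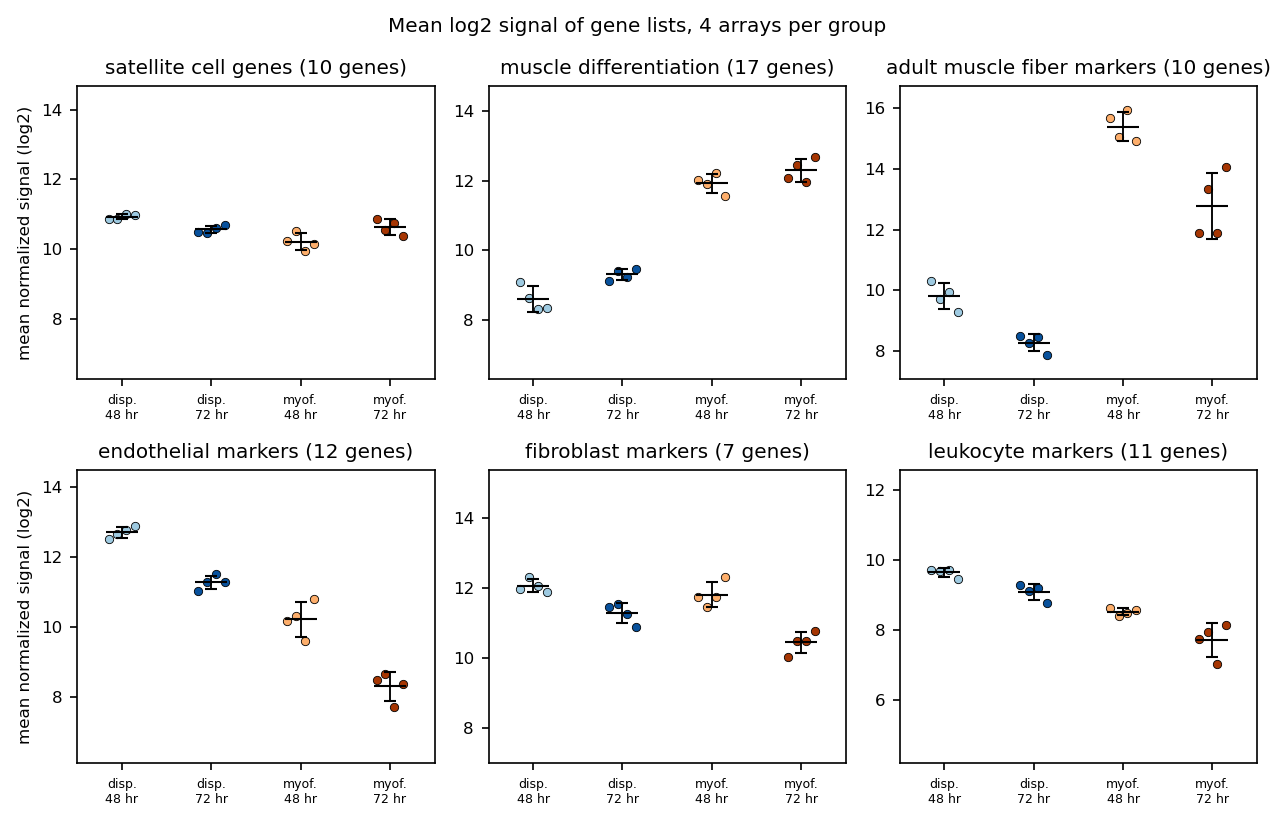
Mean normalized log2 signal per array of the 10 satellite cell genes and of lists of muscle differentiation, adult muscle fiber, endothelial, fibroblast and leukocyte genes, by culture and time, with the group mean and SD (n = 4 arrays). Endothelial means fall to between 7.72 and 8.64 on myofibers at 72 hr, and fiber means stand at 14.9 to 15.9 on myofibers at 48 hr.

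Genes whose signal followed that of a gene here most closely over the 16 arrays, among 12809 compared, were Pitx3 for Pax7 (Pearson's r = 0.97), Trp53i11 for Sox8 (r = 0.97), Unc13b for Spry1 (r = 0.97) and Myoz3 for Chrdl2 (r = 0.99). They were Cxcl3 for Cd34 (r = 0.99), Scrn2 for Cdh15 (r = 0.96), Wrap53 for Vcam1 (r = 0.97), Rhod for Jam2 (r = 0.98) and Tle2 for Ncam1 (r = 0.98). Myoz3 is a gene of the sarcomere. After the 4 group means were removed, the closest were Rpl7a for Pax7, Itga3 for Sox8, Wdr31 for Spry1, Rhpn2 for Chrdl2, Cd14 for Cd34, Dmpk for Cdh15, Mapk8ip1 for Vcam1, Dgkh for Jam2 and Tppp3 for Ncam1, with r between 0.89 and 0.98. The arrays share their slide and culture, and these values only describe likeness.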

How the data were processed

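Total RNA of 16 myoblast preparations was hybridized to one-color Agilent arrays. The deposited scanner files hold the spot intensity that Feature Extraction 11.0.1.1 wrote after its own background subtraction, and the probe positions in them are of build mm9. A second table deposited by the authors holds log2 ratios, 72-hr arrays over the average 48-hr array of the same culture. It was used only as an alternative, with its scale and direction found by setting it against the scanner values. Limma is named in the submitters' processing notes.

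Here log2 signals, outlier spots left out, were loess-normalized against an average 48-hr array of the same culture and quantile-normalized over 16 arrays, after the study's methods. Replicate spots of a probe were averaged, and each gene was read from its brightest probe. The filter was a median log2 signal of at least 5. Comparisons used limma 3.58.1 in R 4.3.3, two-sided, at a threshold of 0.01 after Benjamini-Hochberg adjustment across the features tested, where the study's methods name samr. The 8 arrays of the culture or time compared entered each fit, and all 16 the difference between the cultures. The code was tested on simulated data. The precision is limited by the 4 arrays per group.

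The 10 genes and the gene lists were chosen with earlier results of these data known. All 10 genes are named, with every probe. From the lists of other satellite cell genes, partners and differentiation, the up to 3 largest rises and falls called in each culture were eligible to be named. The most alike genes are those with the highest Pearson's r, clone names passed over. Alternatives were 75th percentile scaling, quantile scaling without loess, normexp with an offset of 50, no filter, a filter on detection, the mean of a gene's probes, 1 fit of all arrays, the slide row as a block, the authors' ratios and leaving out each array. Promoter windows came from RefSeq (GRCm38.p6). The replicate numbers are names only, given in accession order.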

Additional observations from a re-analysis of the deposited data

Results flagged for a closer look

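The pooled array of myofiber-associated myoblasts at 48 hr stood apart for Cdh15. It read 11.85 where the other 3 arrays read 12.54 to 12.67, and its gap to the nearest of them was 0.847 of the range of the group, more than chance gives in 1 of 20 such groups by Dixon's criterion. The Ncam1 probe at 4688 read 7.80 on dispersed 48-hr replicate 3 and 7.97 to 7.99 on the other 3 arrays, a gap of 0.881 of the range. Over 64 sets of 4 arrays examined, chance gives about 3.2 such values, and 2 were found.

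Pax7, Jam2 and Sox8 differed between the cultures in their change from 48 to 72 hr, by the test of the difference itself. Dispersed minus myofiber-associated, the difference was -1.49 for Pax7, -1.16 for Jam2 and -2.73 for Sox8. That of Sox8 was -0.73 and not called with normexp (adjusted p = 0.0396), and the call was also lost without a filter and without any 1 of 12 arrays. Its probe was well above background on 1 of the 4 myofiber-associated 48-hr arrays.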

How the results depend on the processing

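No paired analysis was possible because the replicate numbers are names given in accession order and the titles of the 2 times share no number. The calls of Chrdl2 and Jam2 in dispersed cultures and of Pax7 and Jam2 on myofibers and in the difference between the cultures were kept in all alternatives run. On myofibers 5 genes were called, and 3 with normexp, 2 without a filter, 3 with the filter on detection and 3 with the slide row as a block. The calls lost there were Sox8 and Cd34, and Cdh15 too without a filter, Sox8 was also lost without loess (adjusted p = 0.0106), and Ncam1 in dispersed cultures was lost without a filter and in 1 fit of all arrays (adjusted p = 0.0156 and 0.286). Without a filter 4 probes of 9 were called on myofibers and 2 of 4 in the difference. In the difference 5 genes were called from the authors' table against 3. At 48 hr between the cultures the slide-row fit, which compared only replicates 1 and 2 of each group, gave 3 against 6. Leaving out single arrays gave 2 to 3 genes in dispersed cultures, 2 to 5 on myofibers, 2 to 4 in the difference, 6 to 8 between the cultures at 48 hr and 2 to 4 at 72 hr, and 6 to 8, 4 to 10 and 2 to 6 probes in the first 3. Over all genes, leaving out single arrays gave 1669 to 2501 calls in dispersed cultures, 230 to 1986 on myofibers and 293 to 2353 in the difference, against 2778, 1114 and 702.

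Values that changed sign were near 0 or depended on the probe. Vcam1 in dispersed cultures (-0.01) was 0.073 with the 75th percentile and -0.050 to 0.012 without single arrays. Spry1 on myofibers (0.08) was -0.037 to 0.16 without single arrays. The difference for Chrdl2 (-0.04) was 0.32 with normexp, 0.20 from the authors' table and -0.18 to 0.12 without single arrays. With the mean of a gene's probes, Ncam1 at 48 hr was higher on myofibers by 0.78 (adjusted p = 0.000231) and Jam2 at 72 hr differed by -0.11. Calcr, dim throughout, differed by -0.63 and -0.58 with normexp against -3.00 and -2.24, and the difference between the cultures for Sox8 by -0.73 against -2.73. The cause was not tested. The limit is signal over background for Sox8 and Calcr, and the 4 arrays of a group for the others.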
